A study of Homo sapiens with 2 samples.

Results

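Cytosolic nucleic acid sensing was described through 8 genes: DDX58, IFIH1, DHX58, EIF2AK2, TLR3, IFI16, CGAS and TMEM173. They were taken by symbol from a list of 10, in which MB21D1 is another name of CGAS and STING1 another name of TMEM173, and they are 8 of the 36601 genes in the matrix. TLR3 senses RNA in endosomes rather than in the cytosol and was kept because the list names it. The cells were OVCAR5, an ovarian carcinoma line, all of which carried an IFNy-sensing reporter and were labelled CFP+. The labels name 18 conditions in 1 pool, in which cells were left unstimulated or received interferon-gamma (IFNy) at 1, 10 or 100 ng/ml for 2, 6, 12 or 24 h, with frozen cells added for the unstimulated and the 100 ng/ml condition at 24 h. The cells carried pairs of 8 antibody hashtags, and 18 pairs were read, but which condition a pair stands for is not given in the labels or files used here. The pool was therefore 1 sample, pairs are named by their hashtags, doses, times and frozen cells are not compared, and each interval below is an exact 95% interval that covers counting error only.

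RIG-I (the product of DDX58), MDA5 (IFIH1) and LGP2 (DHX58) are helicases that bind viral RNA in the cytosol, and RIG-I and MDA5 signal through the mitochondrial adaptor MAVS to the kinase TBK1 and the factor IRF3. cGAS (CGAS) binds DNA in the cytosol and makes cyclic GMP-AMP, which activates STING (TMEM173) on the endoplasmic reticulum, and IFI16 also binds DNA. PKR (EIF2AK2) binds double-stranded RNA and stops translation by phosphorylating eIF2. Several of these genes are known interferon-stimulated genes, whose promoters can hold an interferon-stimulated response element (ISRE), bound by IRF factors among others, or a gamma-activated site (GAS).

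Both libraries shared all 7804 barcodes, and 7201 cells passed a minimum of 500 genes and a limit of 20% on the mitochondrial share of UMIs (unique molecular identifiers, the counted transcripts). A pair was read in 6114 cells, in 166 to 493 cells per pair, with 5392185 to 16184801 UMIs per pair and a median of 27824.5 to 32945 UMIs per cell. The carcinoma markers KRT8 and KRT18 had a UMI in 99.4% and 99.9% of cells and EPCAM in 69.6%, with KRT7 in 94.5%. Of 10 markers of T, myeloid, endothelial and stromal cells, CD3E, TYROBP and COL1A2 had 0 UMIs. CD14, a myeloid marker, had a UMI in 13.4% of cells (1121 UMIs, at most 8.03 CPM in a pair) and the fibroblast marker COL1A1 in 2.24% (165 UMIs). LYZ had a UMI in 1.38% of cells and PECAM1 in 0.819%, while CD3D had 9 UMIs, VWF 4 and PTPRC 2. Their part in the results was not tested.

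Promoter sequences are shown for 4 sensors, because IFIH1, EIF2AK2, TLR3 and DDX58 were lowest in nearly the same hashtag pairs and their windows differ in response-element letters. Each is the RefSeq window of 300 bases around the gene's start (build GRCh38.p14), written 5′ to 3′ on the gene's strand, with matches in capitals. The ISRE-like letters searched were GAAANNGAAA and the GAS-like letters TTCNNNGAA, on both strands, with overlapping matches counted separately.
IFIH1, chr2:162318635-162318934, minus strand: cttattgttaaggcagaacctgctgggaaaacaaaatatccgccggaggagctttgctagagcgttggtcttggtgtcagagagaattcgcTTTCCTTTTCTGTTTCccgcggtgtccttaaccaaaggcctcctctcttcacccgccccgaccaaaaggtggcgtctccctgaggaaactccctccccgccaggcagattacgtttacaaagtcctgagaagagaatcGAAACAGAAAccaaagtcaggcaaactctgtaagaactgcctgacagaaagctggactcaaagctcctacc
EIF2AK2, chr2:37156931-37157230, minus strand: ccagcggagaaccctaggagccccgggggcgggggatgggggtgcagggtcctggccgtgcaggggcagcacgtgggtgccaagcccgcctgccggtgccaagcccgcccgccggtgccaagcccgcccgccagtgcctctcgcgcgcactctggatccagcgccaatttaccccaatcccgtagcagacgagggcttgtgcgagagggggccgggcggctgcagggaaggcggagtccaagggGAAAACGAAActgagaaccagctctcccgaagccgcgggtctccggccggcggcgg
TLR3, chr4:186068906-186069205, plus strand: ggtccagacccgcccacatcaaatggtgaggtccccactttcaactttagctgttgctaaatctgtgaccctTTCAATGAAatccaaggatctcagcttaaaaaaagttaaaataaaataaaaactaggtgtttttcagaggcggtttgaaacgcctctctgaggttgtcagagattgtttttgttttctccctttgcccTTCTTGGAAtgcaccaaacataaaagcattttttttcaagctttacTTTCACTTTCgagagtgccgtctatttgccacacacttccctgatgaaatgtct
DDX58, chr9:32526147-32526446, minus strand: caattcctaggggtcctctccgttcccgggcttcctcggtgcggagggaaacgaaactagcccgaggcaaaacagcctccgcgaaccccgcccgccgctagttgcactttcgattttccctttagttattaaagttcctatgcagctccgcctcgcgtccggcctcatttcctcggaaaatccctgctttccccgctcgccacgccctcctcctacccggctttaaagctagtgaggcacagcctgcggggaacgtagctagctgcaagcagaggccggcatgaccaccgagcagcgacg
The IFIH1 window held 3 ISRE-like matches, 2 of which overlapped, and EIF2AK2 held 1. TLR3 held 1 ISRE-like and 2 GAS-like matches, while the DDX58 window held 0 of either. Of 35116 windows of this length, 3.57% held the ISRE-like letters and 7.66% the GAS-like letters. In all 5 of the 8 sensors matched a RefSeq window. The other was IFI16, whose 2 windows lie inside the annotated gene and held 0 matches. A match describes letters only, and a window without one says nothing of the factor.

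All 8 sensors were at least 2-fold higher in their highest than in their lowest hashtag pair, and 5 of 8, namely DDX58, IFIH1, DHX58, TLR3 and IFI16, were at least 4-fold higher. This ratio is called the span, and levels are given in CPM, the gene's UMIs per 1000000 UMIs of the pair. The highest and lowest pair were picked from the same counts, and the interval of a span does not cover that choice. Values of 2 pairs are said to differ where the interval of their ratio leaves out 1, with no adjustment for the number of pairs compared. Among 7566 genes with at least 2000 UMIs in paired cells, 17.7% spanned at least 2-fold and 3.45% at least 4-fold. The median span was 1.53-fold over those genes and 3.64-fold over the 6 sensors that reached 2000 UMIs, 3 of which spanned 4-fold. DHX58 (1055 UMIs) and TLR3 (307 UMIs) did not reach it, and their spans rest on few transcripts. With each cell thinned to 10000 UMIs, TLR3 fell below 4-fold (3.58-fold, with 0 UMIs in the lowest pair, set to a floor of 3), leaving 4 sensors at 4-fold. Under the same thinning CGAS fell below 2-fold (1.84-fold, on 56 UMIs in the lowest pair).

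**Figure D1:**
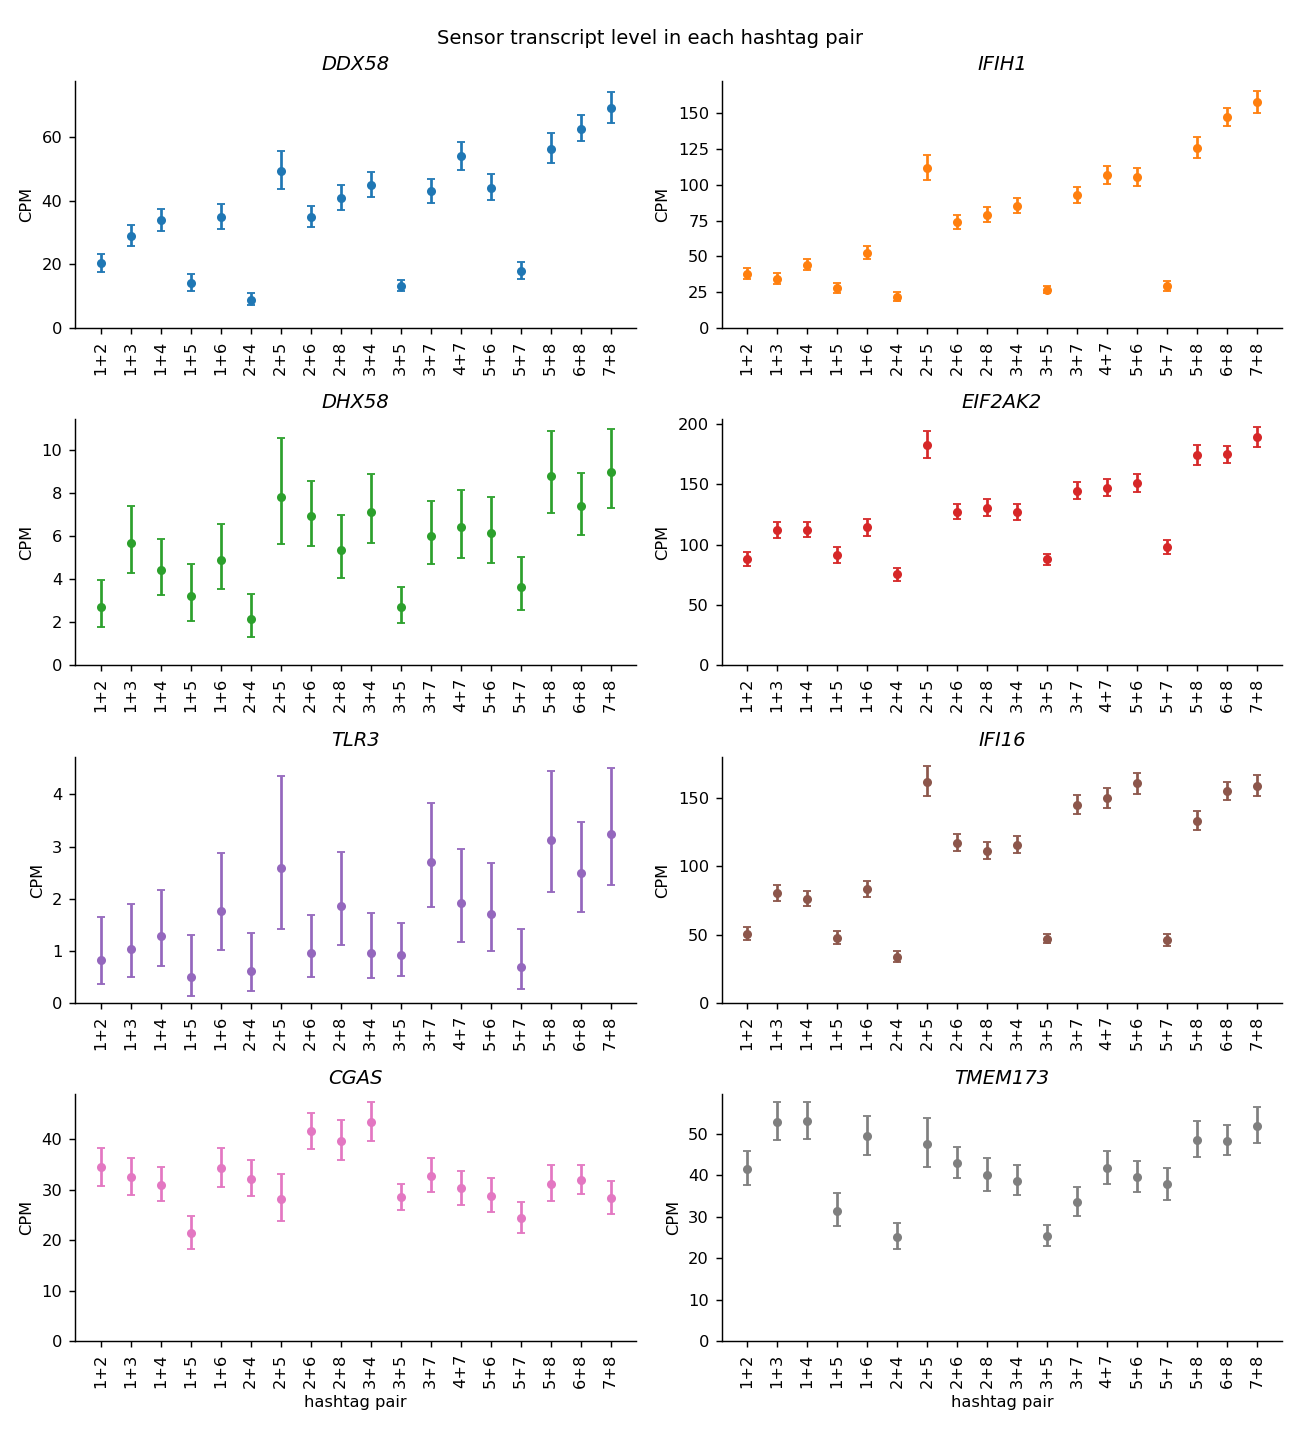
Level of each sensor (CPM, linear axis from 0) in the 18 hashtag pairs, in order of hashtag number, with exact Poisson 95% intervals. DDX58, IFIH1, EIF2AK2 and IFI16 were all low in pairs 1+5, 2+4, 3+5 and 5+7, while CGAS stayed between 21.4 and 43.4 CPM.

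DDX58, which encodes RIG-I, a sensor of RNA with 5′ triphosphate ends, lies at chr9:32455705-32526324 (minus strand; gene positions are from GENCODE 29, GRCh38). Its level was 8.74 CPM in the lowest pair (2+4), 37.9 CPM at the median and 69.2 CPM in the highest (7+8). The span was 7.92-fold (6.32 to 10.03). Pair 7+8 stood above every other pair beyond counting error, and 5 of 17 neighbours in the order differed from each other.

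IFIH1, which encodes MDA5, a sensor of long double-stranded RNA, lies at chr2:162267079-162318703 (minus strand). It ran from 21.6 CPM in pair 2+4 through a median of 76.7 CPM to 157.7 CPM in pair 7+8, a span of 7.30-fold (6.33 to 8.47). Its levels were the most finely separated of the 8, since 9 of 17 neighbouring pairs differed beyond counting error. The top of the order was 5+8, 6+8 and 7+8, each above the one before.

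DHX58, which encodes LGP2, a regulator of the other helicases, lies at chr17:42101404-42112733 (minus strand). It had 2.16 CPM in pair 2+4, a median of 5.84 CPM and 8.98 CPM in pair 7+8. Neighbours in its order did not differ in any of 17 cases, and 5 pairs could not be told from the highest at this depth. The span was 4.16-fold (2.57 to 7.02), an interval that includes values on both sides of 4-fold.

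EIF2AK2, which encodes PKR, lies at chr2:37099210-37157065 (minus strand) and overlaps GPATCH11 on the other strand. It had 75.3 CPM in pair 2+4, a median of 126.9 CPM and 189.3 CPM in pair 7+8, on 24442 UMIs in all. The span was 2.52-fold (2.31 to 2.74). Its highest pair did not differ from 1 other, pair 2+5.

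TLR3, the endosomal receptor for double-stranded RNA, lies at chr4:186069152-186088069 (plus strand). Its counts were low, with 0.512 CPM in pair 1+5 (4 UMIs), a median of 1.495 CPM and 3.24 CPM in pair 7+8 (35 UMIs). The span of 6.33-fold had an interval of 2.26 to 24.5. None of the 17 neighbouring pairs differed, and 7 pairs did not differ from the highest.

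IFI16, a DNA-binding protein with pyrin and HIN domains, lies at chr1:158999968-159055155 (plus strand). It had 33.9 CPM in pair 2+4, a median of 113.4 CPM and 161.7 CPM in pair 2+5, a span of 4.77-fold (4.19 to 5.43). Pair 2+5 has the fewest cells (166), and 4 other pairs did not differ from it. Its order had steps beyond counting error from 50.6 CPM in pair 1+2 to 76.2 CPM in pair 1+4 and from 83.3 CPM in pair 1+6 to 111.2 CPM in pair 2+8.

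CGAS, the cytosolic DNA sensor, lies at chr6:73413515-73452276 (minus strand) and overlaps DDX43 on the other strand. It had 21.4 CPM in pair 1+5, a median of 31.5 CPM and 43.4 CPM in pair 3+4, a span of 2.03-fold (1.70 to 2.44). No neighbouring pairs differed, and pairs 2+6 and 2+8 did not differ from the highest.

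TMEM173, which encodes STING, lies at chr5:139475534-139482935 (minus strand). It had 25.2 CPM in pair 2+4, a median of 41.7 CPM and 53.1 CPM in pair 1+4, a span of 2.11-fold (1.81 to 2.46). Only 1 of 17 neighbours in its order differed, 3+5 from 1+5, and 6 pairs did not differ from the highest.

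**Figure D2:**
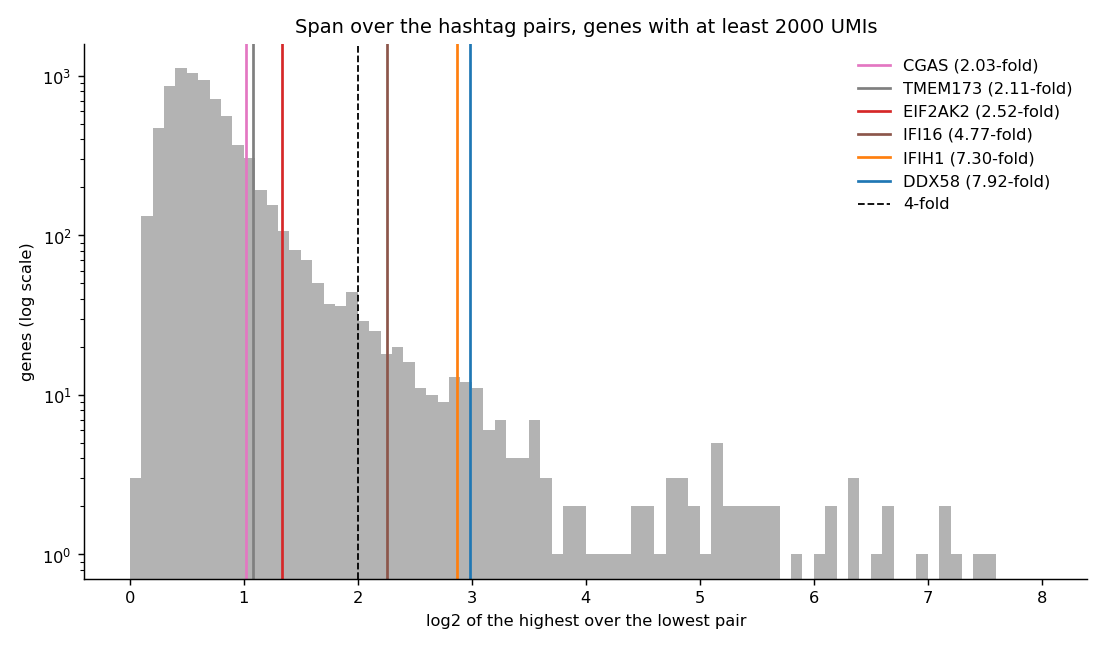
Histogram of the span (log2 of the highest over the lowest pair) of 7566 genes with at least 2000 UMIs, with gene number on a log scale. Coloured lines mark the 6 sensors that reached 2000 UMIs: CGAS, TMEM173 and EIF2AK2 lie left of the dashed 4-fold line, and IFI16, IFIH1 and DDX58 right of it.

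Pair 7+8 was the highest for DDX58, IFIH1, DHX58, EIF2AK2 and TLR3. It was near the highest for IFI16 (158.5 against 161.7 CPM in 2+5) and TMEM173 (52.02 against 53.1 CPM in 1+4). CGAS had 28.3 CPM in 7+8 against 43.4 CPM in 3+4. The same 5 pairs (1+2, 1+5, 2+4, 3+5 and 5+7) were lowest for DDX58, DHX58, EIF2AK2, TLR3 and IFI16. IFIH1 shared 4 of these, with 1+3 in place of 1+2, TMEM173 shared 4 and CGAS 3. The highest of a sensor's 5 lowest pairs differed from the next pair up for DDX58, EIF2AK2 and IFI16 only. Over the 18 pairs, which share 1 library and a like median depth per cell, Spearman's rho was 0.99 between DDX58 and IFIH1. Between CGAS and the other sensors it ran from -0.12 to 0.094, and between TMEM173 and the 6 sensors other than CGAS from 0.40 to 0.54. These are descriptions over pairs that are not independent samples.

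Single pairs of hashtags, chosen after their values were seen, show where the order of pairs differed between sensors. From pair 1+6 to pair 7+8, IFIH1 was 3.01-fold higher (2.71 to 3.34), DDX58 1.98-fold (1.74 to 2.27) and IFI16 1.90-fold (1.75 to 2.08). TMEM173 had 49.5 and 52.02 CPM in these pairs, a ratio of 1.05 (0.927 to 1.19). CGAS was lower in 7+8, with a ratio of 0.826 (0.703 to 0.971). In pair 3+4, CGAS was 1.53-fold (1.33 to 1.77) the level of pair 7+8, while IFIH1 was 0.542 of it (0.501 to 0.587). TMEM173 was 1.58-fold higher (1.39 to 1.80) in pair 1+4 than in pair 3+7, where IFIH1 had a ratio of 0.476 (0.426 to 0.530) in the same direction of division. STING and MDA5 transcripts thus differed in opposite directions between 1+4 and 3+7. Between 1+6 and 7+8 IFIH1 differed and TMEM173 did not, while in the other combinations computed both differed in the same direction. TMEM173 was 0.745 (0.656 to 0.845) in 3+4 over 7+8, 1.51-fold (1.27 to 1.81) higher in 2+5 than in 1+5, where IFIH1 was 4.06-fold higher, and 1.19-fold (1.04 to 1.37) higher in 1+6 than in 1+2, where IFIH1 was 1.39-fold higher.

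Genes most like each sensor over the 18 pairs were taken as the 3 with the highest rho among those with at least 2000 UMIs. For DDX58 they were IFIH1, C5orf56 and SAMD9 (0.99 each), and for IFIH1 they were GBP4, DDX58 and OAS1 (0.99 each). DHX58 was most like DDX60 (0.96), PSMB8-AS1 and TRIM69 (0.95 each), and EIF2AK2 most like IL18BP (0.99), APOL3 and IFIT3 (0.98 each). For TLR3 they included TENT5A (0.92) and OGFR (0.91), and for IFI16 they were CCDC68 (0.98), XRN1 and CNDP2 (0.97 each). CGAS was most like SELENOI (0.92), TMEM150A (0.91) and PAWR (0.88), and TMEM173 most like CCDC71L (0.93), LRIF1 (0.91) and DUSP6 (0.90). Another of the 8 sensors was among these 3 genes for DDX58 and IFIH1 only.

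Within every hashtag pair a small set of cells had far more RIG-I and MDA5 transcripts than the rest. These antiviral-high cells were defined without the sensors, by at least 3 UMIs of RSAD2, HERC5, OASL and CCL5 together after each cell was thinned to 10000 UMIs. RSAD2 encodes viperin, HERC5 an ISG15 ligase, OASL a protein related to the oligoadenylate synthetases, and CCL5 a chemokine. They were 381 of 5956 thinned cells (6.40%), with 10 to 41 cells per pair and 4.13 to 9.86% of the cells of a pair. OASL itself spanned 2.64-fold over pairs. The class is a range of a score and not a cell type: 163 cells had 2 UMIs of these genes, 60 had 3, and 256 had over 5. Its median depth was 30248 UMIs against 30271 in other cells, and its median mitochondrial share 11.7% against 11.5%.

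**Figure D3:**
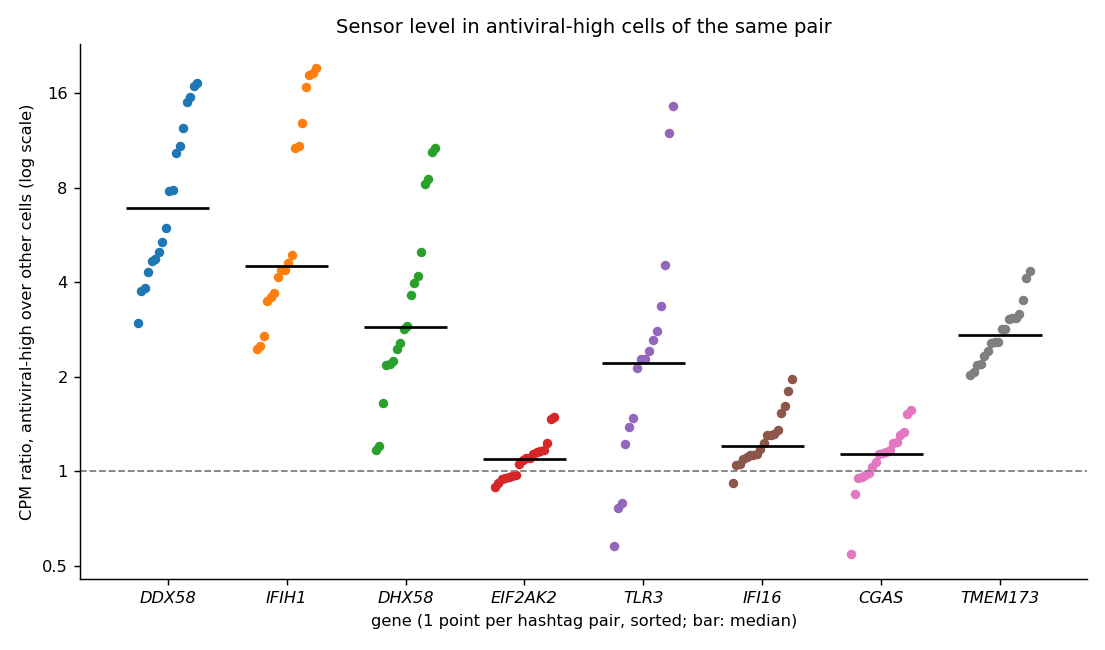
Ratio of CPM in antiviral-high cells to CPM in other cells of the same hashtag pair (log axis), with 1 point per pair in rising order and a bar at the median. All points of DDX58, IFIH1, DHX58 and TMEM173 lie above 1, and 2 pairs with 0 TLR3 UMIs in the class are not drawn.

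DDX58 was higher in antiviral-high cells in 18 of 18 pairs, with a median ratio of 6.89 and a range of 2.97 to 17.3. Its level was 74.8 to 246.7 CPM in these cells and 6.02 to 54.7 CPM in the others, so the ranges did not overlap. The share of all genes with ranges that do not overlap was not counted. IFIH1 was higher in 18 of 18 pairs, by a median of 4.50-fold (range over pairs 2.45 to 19.2). TMEM173 was also higher in 18 of 18, by a median of 2.71-fold (range over pairs 2.02 to 4.35). Its levels were 78.8 to 151.4 CPM against 21.9 to 49.5 CPM. DHX58 had a median ratio of 2.87 (range over pairs 1.17 to 10.7) and lay above 1 in 18 pairs. However, it rested on 1 to 20 UMIs in the class per pair, and in 5 pairs its interval included 1.

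The other sensors differed less or were too sparse. EIF2AK2 had a median ratio of 1.09 (range over pairs 0.891 to 1.49) and was above 1 in 11 of 18 pairs. CGAS had 1.14 (range over pairs 0.543 to 1.56) and was above 1 in 12 pairs. IFI16 had 1.20 (range over pairs 0.918 to 1.97) and was above 1 in 17 pairs. TLR3 had a median of 2.21, but 16 of 18 pairs held under 4 TLR3 UMIs in the class, and under each other setting its median was 1.65 to 1.84. At least 2-fold higher by the median were thus 5 of 8 sensors, and 4 under every other setting, TLR3 being the one lost. Of the 6 sensors with at least 2000 UMIs, 3 were (DDX58, IFIH1 and TMEM173). Of the 7566 genes with that many, 0.833% were at least 2-fold higher, and the median gene had a ratio of 0.969. The lowest pair ratio of TMEM173 (2.02) lay above the highest of EIF2AK2 (1.49). How often this holds between 2 genes of the 7566 was not counted.

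IFIH1 showed a gap in this ratio. In 11 pairs it was at most 4.89, and in the other 7 it was at least 10.7. Pair 2+4, the lowest for IFIH1, had 239.9 CPM in 13 antiviral-high cells against 12.5 CPM in the others, a ratio of 19.2 (14.5 to 25.5). Pair 7+8, the highest, had 343.7 against 137.3 CPM, a ratio of 2.50 (2.22 to 2.81). The level in the other cells thus differed more between these pairs than the level in antiviral-high cells.

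**Figure D4:**
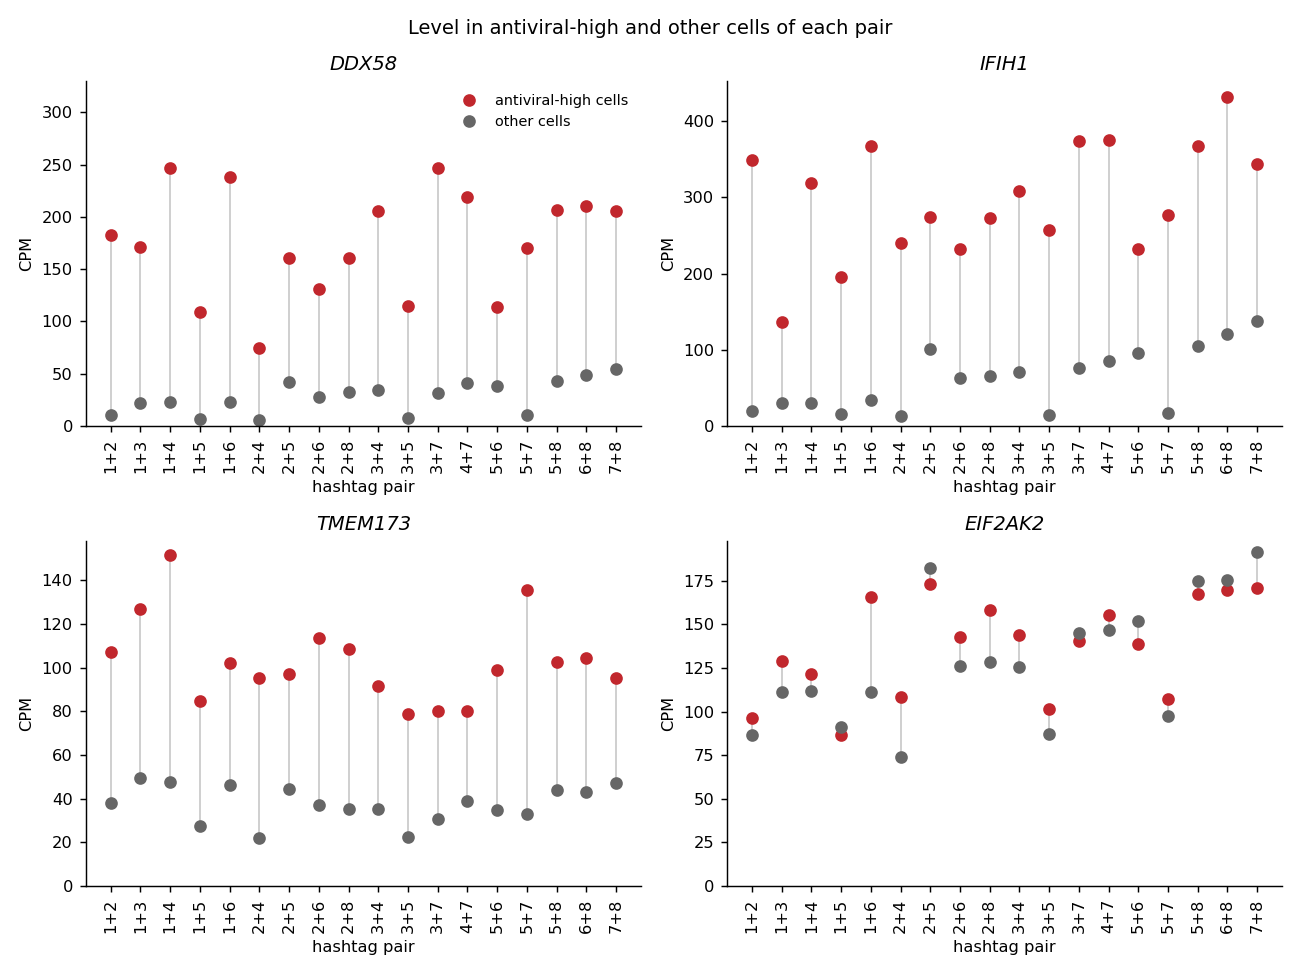
Level (CPM, linear axis from 0) of DDX58, IFIH1, TMEM173 and EIF2AK2 in antiviral-high cells (red) and other cells (grey) of each hashtag pair. For DDX58 and TMEM173 all red points lie above all grey ones, and for EIF2AK2 the colours overlap. The share of all genes without overlap was not counted.

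Antiviral-high cells held 30.6% of all DDX58 UMIs and 25.9% of IFIH1 UMIs of the 5956 cells, against 7.03% of EIF2AK2 and 7.12% of CGAS UMIs. In pair 1+5, where the share was highest, 14 such cells of 238 (5.88%) held 53.2% of the DDX58 UMIs. The share was lowest in pair 5+6, at 19.5%. Without antiviral-high cells the span of IFIH1 over pairs was 11.01-fold (9.10 to 13.4) and that of DDX58 9.09-fold (6.89 to 12.2), and 5 sensors still spanned 4-fold. The span of DDX58 stayed within its interval given above, as did those of CGAS (2.02-fold), TMEM173 (2.26-fold), EIF2AK2 (2.60-fold) and IFI16 (4.92-fold). That of IFIH1 did not.

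Shares of cells with a transcript showed the same split. After thinning, 72.7% (67.9 to 77.1%) of antiviral-high cells had a DDX58 UMI against 23.1% (22.02 to 24.3%) of the others, or 93.7% and 48.2% unthinned. For IFIH1 these shares were 83.5% and 38.3% (96.3% and 66.9% unthinned), and for TMEM173 58.8% and 29.6% (85.04% and 60.9%). For EIF2AK2 they were 71.4% and 68.3% (96.1% and 93.96%), and for CGAS 27.3% and 25.2% (63.5% and 57.9%). A share of cells with a UMI can include free RNA, and the pool holds no cell type known to lack these genes by which to measure it.

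Spread between cells of a pair was summarised by the Fano factor (variance over mean of thinned UMIs, 1 for Poisson counts), as a median over pairs. IFIH1 had 2.21 and DDX58 1.73, against a median of 1.05 over 7566 genes, and 98.1% of genes lay below IFIH1. TMEM173 had 1.31, IFI16 1.21, EIF2AK2 1.11, CGAS 1.07, DHX58 1.01 and TLR3 0.989. DDX58, IFIH1, IFI16 and TMEM173 had a UMI in fewer cells than Poisson counts of the same mean would give in 18 of 18 pairs. CGAS did so in 15 pairs, EIF2AK2 in 12, DHX58 in 9 and TLR3 in 1. The share of all genes that do so was not counted. Where no cell of a pair held more than 1 UMI, the share cannot fall below the Poisson share and the Fano factor cannot pass 1. That held in most TLR3 pairs and several DHX58 pairs, so these values cannot describe the spread of TLR3 and DHX58. In its highest pair, 7+8, DDX58 had a UMI in 49.6% of cells (44.2 to 54.97%; 75.8% unthinned), where Poisson counts would give 55.3%. IFIH1 there had 70.1% (65.01 to 74.9%; 90.7% unthinned) against 80.2%. The lowest thinned share of DDX58 was 6.72% in pair 1+5 (3.89 to 10.7%; 23.9% unthinned). Pair 2+4, the lowest by CPM, had 9.52% (6.52 to 13.3%; 17.5% unthinned).

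**Figure D5:**
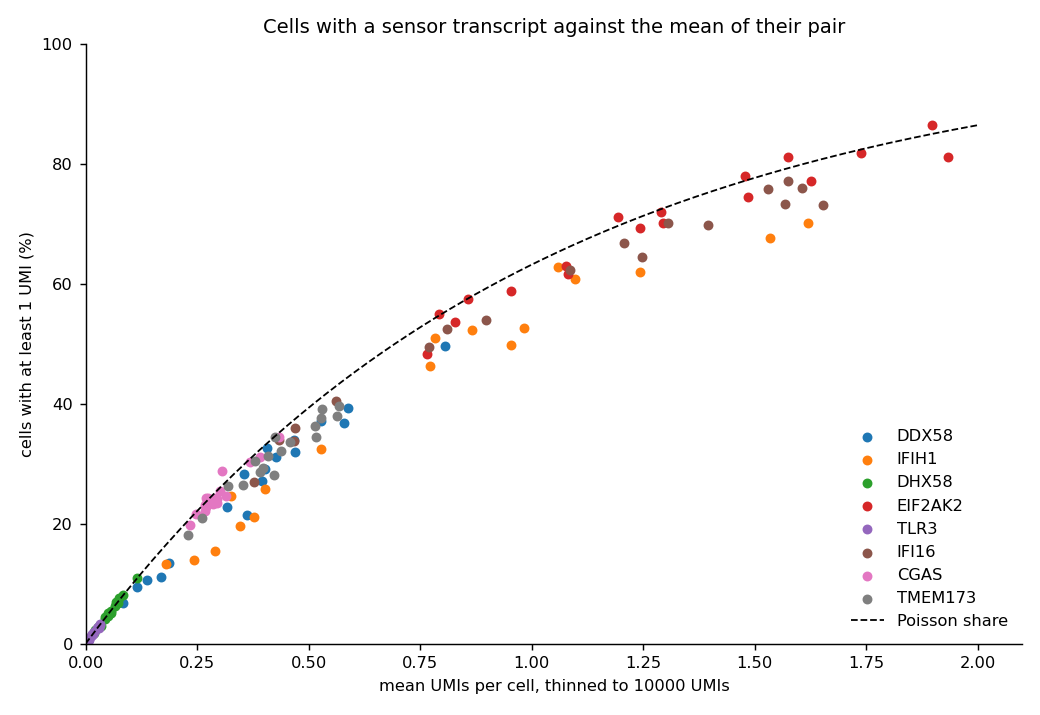
Share of cells with at least 1 UMI (percent) against mean UMIs per cell, both after thinning to 10000 UMIs, with 1 point per sensor and hashtag pair; the dashed line is the share that Poisson counts give. IFIH1 points lie below the line in all 18 pairs, and CGAS points lie close to it.

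Within pairs, correlations between sensors over cells were weak. The median rho between DDX58 and IFIH1 was 0.20, and 0.066 without antiviral-high cells. In counts this sparse such values are no finding.

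In cells high in G2/M genes the median ratio over pairs was within 1.5-fold for 7 of 8 sensors, but single pairs differed in both directions. G2/M-high cells, the top 20% of each pair by 12 G2/M genes (1187 cells), had a median depth of 36664 UMIs against 29513 in other cells, and whether depth had a part in the ratios was not tested. TMEM173 was higher in them in 15 of 18 pairs, by a median of 1.35-fold (range over pairs 0.858 to 1.97). IFI16 was lower in 15 of 18, with a median ratio of 0.921. CGAS had a median of 1.01 (range over pairs 0.731 to 1.21) and EIF2AK2 0.974 (range over pairs 0.838 to 1.196). DDX58 had a median of 1.13 but ran from 0.559 in pair 1+6 (interval 0.401 to 0.765) to 1.77 in pair 1+5 (1.15 to 2.67). IFIH1, with a median of 1.10, ran from 0.553 in pair 1+3 (0.396 to 0.757) to 1.72 in pair 1+2 (1.37 to 2.14), and DHX58, with 1.22, from 0.318 to 2.39. TLR3, at 0.565 on 49 UMIs, was the only sensor of 8 whose median passed 1.5-fold. No sensor with at least 2000 UMIs passed it, beside 5.62% of the 7566 genes with that many.

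A set of 114 cells, found after the data were seen, went the other way for STING. It was defined by at least 5 thinned UMIs of SERPINB3, SERPINB4, PCSK1N, TFPI2, KRT81 and ZFHX4 together and shared 0 cells with the antiviral-high class. Ratios here are over the summed cells, and the share of all genes this low in the set was not counted. TMEM173 had 7.10 CPM in this set against 42.2 CPM in other cells, a ratio of 0.168 (0.118 to 0.233). It was lower in 18 of 18 pairs, with 2 to 10 cells each, but in 2+4 and 5+7 the interval included 1. IFIH1 had a ratio of 0.429 (0.366 to 0.499), and its median over pairs was 0.372. It was lower in 18 of 18 pairs, but the interval included 1 in 1+4, 1+5, 2+4, 2+5, 3+5, 5+6 and 5+7. EIF2AK2 had 1.18 (1.096 to 1.27) and DDX58 0.894 (0.763 to 1.04), and DHX58 had 3 UMIs. CGAS had 0.705 (0.581 to 0.847). IFI16 had 1.25 (1.15 to 1.35) over the summed cells, with pair ratios from 0.374 to 2.03, above 1 in 10 of 18. TLR3 had 10 UMIs. These cells had a median of 42319.5 UMIs against 30100.5 and 4.84% mitochondrial UMIs against 11.6%, and the part of these differences was not tested.

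Partners of the sensors were described by 7 lists of 79 genes, of which 59 reached 2000 UMIs. Of these 59, 8 spanned at least 4-fold and 20 at least 2-fold, beside 3.45% and 17.7% of all 7566 genes. Their median span was 1.68-fold beside 1.53-fold for all 7566 genes. The genes that spanned 4-fold were 4 of 11 among other nucleic acid sensors, 2 of 7 transcription factors, 1 of 8 RIG-I-like receptor and PKR cofactors and 1 of 7 nucleases and negative regulators. In lists this small a count of 1 is near what the share of all genes gives.

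Among the other sensors, OAS2, an oligoadenylate synthetase that activates RNase L, spanned 34.7-fold (23.4 to 53.5), from 1.61 CPM in pair 3+5 to 55.7 CPM in 7+8. Its relatives OAS3 and OAS1 spanned 8.23-fold and 8.19-fold, IFIT1, which binds RNA lacking cap methylation, 4.51-fold, and ZNFX1 3.57-fold. PRKDC, the DNA-dependent protein kinase, spanned 1.51-fold. SAMHD1, which degrades deoxynucleotides, ran from 9.87 to 92.6 CPM, 9.38-fold (7.60 to 11.7). ADAR, which edits double-stranded RNA, spanned 2.66-fold and the RNase H2 subunit RNASEH2C 1.17-fold.

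IRF1 spanned 31.04-fold with its highest level in pair 1+6, not in 7+8, and JUN 5.26-fold with its highest in 1+4. The cofactor DDX60, a helicase, spanned 4.30-fold, and G3BP1 and DHX36 1.24-fold and 1.47-fold. Of 9 adaptors and kinases, 0 spanned 2-fold: FADD spanned 1.86-fold and TANK 1.35-fold. With 17.7% of all genes spanning 2-fold and only 9 genes in the list, this count is near what the background gives. MAVS at 1.78-fold and TBK1 at 1.62-fold, named after their values were seen, are the adaptor and kinase of the RNA sensors. Of 9 STING trafficking genes 1 spanned 2-fold, SLC19A1 (2.16-fold), also near the 17.7% of all genes. TMED2 and SNX8 spanned 1.18-fold and 1.22-fold. The eIF2 subunits EIF2S2 and EIF2S1 spanned 1.31-fold and 1.63-fold.

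In antiviral-high cells 6 of the 59 partners were at least 2-fold higher by the median, beside 0.833% of all genes, and OASL among them is in the class definition. The rest were IFIT1 (11.6-fold), DDX60 (6.67-fold), ZC3HAV1 (3.86-fold), OAS2 (3.65-fold) and OAS1 (2.84-fold). MAVS had a ratio of 1.08, TBK1 1.00, SAMHD1 1.06 and IRF1 1.20. TREX1, a DNA exonuclease, and TLR8 had 0 UMIs, and USP18, at 1999 UMIs, spanned 9.02-fold and was named after its value was seen.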

How the data were processed

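The authors deposited raw UMI counts per feature and barcode of 1 gene expression and 1 hashtag library. The matrix names Cell Ranger 5.0.1, per the file headers, whereas version 2.1.1 and GRCh38 appear in the submitters' processing notes. The cell calling step is not stated in the labels. Barcodes under 500 genes or over 20% mitochondrial UMIs were dropped. A pair was read where the second hashtag held at least 5 times the third plus 1 UMI, in pairs of at least 100 cells. This leaves out cells with several pairs, while doublets within a pair cannot be seen. CPM are a gene's summed UMIs over all UMIs of the pair, with a floor of 3 UMIs for the lowest pair of a span. Poisson, conditional ratio and Clopper-Pearson intervals were exact at 95% (Python 3.11.15, numpy 2.4.6, scipy 1.17.1) and cover counting error only. Thinning to 10000 UMIs left out 158 paired cells. No p-value was computed, because 1 pool is 1 sample. The calculations were tested on simulated data. Free RNA was not subtracted. The members, gene lists and cell classes were chosen with earlier results of these data known. Named genes are the members, the 2 with most UMIs and all spanning 4-fold in each list, and 3 like genes per member, 1 of which is not reported here. Others are said to be named after their values were seen, and ZC3HAV1, SLC19A1 and OASL are named because they fall in small counts.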

Additional observations from a re-analysis of the deposited data

Results flagged for a closer look

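Sensor transcripts were also counted in barcodes outside the pairs. In 1087 cells without a readable pair, the level was 29.8 CPM for DDX58, 62.02 for IFIH1, 5.66 for DHX58, 104.9 for EIF2AK2, 1.38 for TLR3, 84.4 for IFI16, 26.7 for CGAS and 37.9 for TMEM173. All lie within the range of the 18 pairs. In 603 barcodes that failed the cell filter it was 23.4 CPM for DDX58, 35.3 for IFIH1, 4.79 for DHX58, 65.5 for EIF2AK2, 2.27 for TLR3, 51.4 for IFI16, 13.6 for CGAS and 26.2 for TMEM173. EIF2AK2 and CGAS lay below their lowest pair there. Over non-mitochondrial UMIs, for which pair levels are not given here, the failed barcodes had 155.5 for EIF2AK2 and 32.3 for CGAS. All are above what a count of 0 allows (0.0568 and 0.756 CPM).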

How the results depend on the processing

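The pairs have no condition labels and the pool is 1 sample, so no setting gives an error between cultures. No paired analysis was possible because the result comes from no test and the samples carry no replicate numbers. With the threshold at 2-fold, 8 sensors passed instead of 5. The number of sensors with a Fano factor of at least 1.5 was 2, and 1 with cells thinned to 5000 UMIs, where DDX58 had 1.43 and IFIH1 1.57. Other denominators, cell filters and the stricter hashtag rule left 5 sensors at 4-fold. Of 64 spans under the alternatives, 3 moved beyond the counting interval: IFIH1 to 8.95-fold thinned and 11.01-fold without antiviral-high cells, and TMEM173 to 2.49-fold thinned. Of 32 class ratios, 5 moved: DDX58 to 5.30 (at least 2 UMIs) and 7.66 (at least 5 UMIs), IFIH1 to 3.82, TMEM173 to 3.07 thinned and TLR3 in G2/M-high cells to 0.447 in the top 10%. The cause was not tested. The 8 shares of cells with a UMI fell with 5000 UMIs, as fewer are counted. Of 24 like genes, 19 stayed with non-mitochondrial UMIs as the denominator. Leaving out the SERPINB3 set, an alternative chosen after seeing the data, left 5 sensors at 4-fold.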
